A study of Mus musculus with 10 samples.

Results

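The genes of MHC class II presentation were read in iKCs, a mouse cell line, across 4 groups that differed in the vector the cells carried. The genes were taken by symbol from the gene table: H2-Aa, H2-Ab1, H2-Eb1, H2-DMa, H2-DMb1, Cd74 and Ciita, which are 7 of the 55815 genes analysed. The vector groups were miR-342-3p overexpression (3 libraries), the mutated miR-342-3p control (2 libraries), the miR-342-3p sponge (3 libraries) and the scramble control sponge (2 libraries). A sponge holds a microRNA away from its targets by offering decoy sites. All cells were sorted for viability and for the fluorescent protein mOrange before polyadenylated RNA was sequenced, and no treatment such as interferon is named in the labels. By its title, the series asks what enforced miR-342 does to the inflammatory state of macrophages near liver metastases. All groups are 1 cell line, so the results describe that line and not macrophages in tissue.

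MHC class II molecules display peptides from the endosomes of antigen-presenting cells to CD4 T cells. An alpha and a beta chain (H2-Aa with H2-Ab1 for I-A, and H2-Ea with H2-Eb1 for I-E) form the peptide groove, the invariant chain Cd74 guides the dimer to endosomes and fills the groove on the way, and H2-DM, made of H2-DMa and H2-DMb1, exchanges the remnant of Cd74 for peptide. The co-activator Ciita is the switch of the pathway: it binds no DNA itself but docks on RFX, CREB and NF-Y factors at the class II promoters, and in macrophages it is induced by interferon gamma.

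The mature microRNA, from the RefSeq table of GRCm38.p6, is shown because a direct target would carry the complement of its seed; capitals mark the seed, bases 2 to 8. It lies at chr12:108658680-108658702 on the plus strand.
mmu-miR-342-3p: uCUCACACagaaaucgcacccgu
The match to this seed, GTGTGAG, was searched on the transcript strand of every gene in its longest 3′ UTR of GENCODE vM21. None of the 7 class II genes held it, in UTRs of 291 bases (H2-DMb1) to 2676 bases (Ciita), while 2876 of 21153 genes (13.6%) did. The 6-base match followed by A was absent from the 7 UTRs as well. Absence says only that these letters are not in these UTRs.

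The libraries held 25712732 to 59259988 counts, so that 3 counts, taken as the detection floor, stood for 0.0506 to 0.117 CPM (counts scaled to library size with TMM factors). The Mir342 hairpin, which checks the overexpression and mutated control labels but cannot tell sponge from scramble sponge, stood at 8.22, 11.3 and 9.41 CPM with overexpression, 2.86 and 3.22 CPM in the mutated control, and 0 counts in the 5 sponge and scramble libraries. All 11 macrophage markers were detected, led by Cd68 with 763 CPM per kilobase, Lyz2 with 759 and Tyrobp with 464. Of 10 Kupffer cell markers 7 passed the count filter, and the defining genes Clec4f and Timd4 were at 0 in every library. Markers of other presenting cells were mixed. Of 9 dendritic cell markers 4 passed the count filter, Batf3 (8.88 CPM per kilobase), Zbtb46 (0.998), Clec9a (0.162) and Itgax (0.0595), while Flt3 had 0 to 1 counts and Cd209a 0. Of 6 B cell markers Cd22 alone passed, at 2.23 CPM per kilobase, and Pax5 had 0 to 1 counts. The summed dendritic level was 22.2 to 24.6 CPM with overexpression, 23.1 to 24.8 in the mutated control, 22.1 to 25.2 with the sponge and 23.7 to 25.0 with the scramble sponge. The summed B cell level was 9.45 to 10.2 CPM with overexpression, 10.7 to 11.7 in the mutated control, 11.8 to 13.9 with the sponge and 12.2 to 12.6 with the scramble sponge, so overexpression was lowest there as for Ciita, and its part in the Ciita result was not tested. In bulk libraries, fewer cells of a type and less RNA per cell cannot be told apart.

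The class II genes spanned levels from abundant to below detection, and the chaperones stood above the peptide-binding chains. Levels were compared per kilobase of exon, as means over the 10 libraries. Cd74 had 23.9 CPM per kilobase (range 18.4 to 27.5), a level that 15.6% of the 15767 tested genes exceeded. H2-DMb1 followed with 14.7 (13.8 to 17.1), and 24.9% of tested genes were higher. H2-DMa stood at 2.10 CPM per kilobase (1.77 to 2.38) and H2-Ab1 at 0.959 (0.720 to 1.20). H2-Eb1, with 0.118 CPM per kilobase (0.0373 to 0.182), and Ciita, with 0.102 (0.0496 to 0.157), overlapped and cannot be ordered. H2-Aa was lowest at 0.0185 (0.00444 to 0.0470). The ranges of all other neighbours in this order were apart except that H2-Aa reached into the range of H2-Eb1. By the count filter 6 of the 7 were tested and H2-Aa was below detection.

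**Figure D1:**
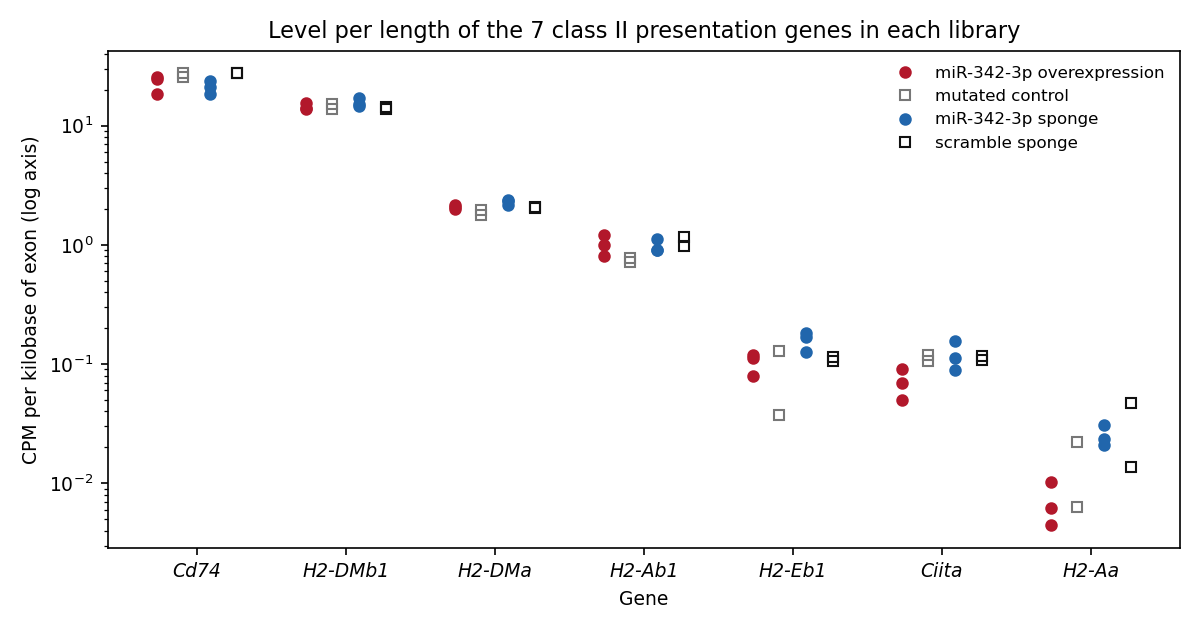
Level of each class II presentation gene in each library, in CPM per kilobase of exon on a log axis, with 1 point per library and the 4 vector groups side by side. Cd74 (18.4 to 27.5) and H2-DMb1 (13.8 to 17.1) lie far above H2-Aa (0.00444 to 0.0470), in every group.

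The I-A alpha chain gene H2-Aa (chromosome 17, 34501718 to 34506797, minus strand, 5 exonic blocks) had 1, 1 and 1 counts with overexpression, 4 and 1 in the mutated control, 4, 4 and 5 with the sponge, and 6 and 3 with the scramble sponge. These counts are at or near the floor of 3 in each group, so no fold change is given. H2-Ab1, its beta chain partner (chromosome 17, 34476663 to 34488393, plus strand, 6 exonic blocks), was above the floor in every library. It had 3.09, 2.08 and 2.57 CPM with overexpression, against 1.85 and 1.98 CPM in the mutated control. It had 2.31, 2.32 and 2.88 CPM with the sponge, against 2.53 and 3.00 CPM with the scramble sponge. The mutated control was thus the low group, and all of the other 8 libraries lay above it. The log2 fold change of overexpression over the mutated control was 0.44 (SE 0.19, 95% interval 0.02 to 0.86), with an adjusted p of 0.258 in edgeR's quasi-likelihood test with Benjamini-Hochberg adjustment, so it did not pass 0.05. The mutated control against the scramble sponge gave -0.54 (SE 0.20, edgeR adjusted p = 0.663), and overexpression against the same scramble sponge libraries gave -0.10 (SE 0.18, edgeR adjusted p = 0.831).

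The I-E beta chain gene H2-Eb1 (chromosome 17, 34524841 to 34535648, plus strand, 6 exonic blocks) had 13, 10 and 4 counts with overexpression and 12 and 3 in the mutated control. It had 11, 18 and 14 counts with the sponge and 7 and 13 with the scramble sponge. Overexpression and mutated control overlapped, whereas the sponge lay above the scramble sponge, at 0.245, 0.354 and 0.328 CPM against 0.208 and 0.224 CPM. The sponge difference on the log2 scale was 0.50, with a 95% interval of -0.42 to 1.42 and an edgeR adjusted p of 1. Counting error alone gives H2-Eb1 a coefficient of variation of 30.9%, against 34.6% measured over the 10 libraries. Its I-E partner H2-Ea had 0 counts in all 10 libraries and H2-Eb2 had 0 to 4, and both were looked up after the values were seen.

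The H2-DM genes varied least over the libraries among the 6 tested. H2-DMb1 (chromosome 17, 34372046 to 34379204, plus strand, 7 exonic blocks) had 25.8, 23.7 and 23.2 CPM with overexpression, against 23.4 and 25.4 CPM in the mutated control. With the sponge it had 24.6, 25.6 and 28.8 CPM, against 24.0 and 23.3 CPM with the scramble sponge. The overexpression and mutated control libraries were interleaved, with a log2 fold change of -0.0045 (95% interval -0.19 to 0.18). The sponge libraries were above both scramble libraries, with a log2 fold change of 0.16 (95% interval -0.03 to 0.34, edgeR adjusted p = 1). Over the 10 libraries its coefficient of variation was 6.95%, where counting error gives 3.00%.

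H2-DMa, the alpha subunit (chromosome 17, 34338515 to 34358075, plus strand, 4 exonic blocks), had 7.51, 6.84 and 7.12 CPM with overexpression, against 6.72 and 6.10 CPM in the mutated control. It had 7.47, 8.09 and 8.20 CPM with the sponge, against 7.05 and 7.15 CPM with the scramble sponge. Each vector's libraries lay above those of its own control, by 0.16 (SE 0.09) with overexpression and 0.16 (SE 0.09) with the sponge on the log2 scale, and neither passed the test (edgeR adjusted p = 0.37 and 1). H2-DMa shares 360 exonic bases with Brd2 on the minus strand. Counting ignored strand and had no option to assign a read to more than 1 gene, so a read overlapping exons of both by at least 10 bases counted for neither. Brd2, a bromodomain protein gene, averaged 402 CPM with overexpression, 372 in the mutated control, 387 with the sponge and 384 with the scramble sponge.

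Cd74 (chromosome 18, 60936920 to 60945724, plus strand, 9 exonic blocks), the invariant chain, was lower with either vector than in its control, and neither difference passed the test. It had 42.7, 30.8 and 41.0 CPM with overexpression, against 43.3 and 46.1 CPM in the mutated control. It had 31.1, 39.5 and 35.5 CPM with the sponge, against 46.0 and 46.1 CPM with the scramble sponge. The 4 control libraries were the highest 4 of the 10, and overexpression replicate 2 and sponge replicate 1 were the lowest. Means were 38.2 ± 6.44 with overexpression, 44.7 ± 1.96 in the mutated control, 35.4 ± 4.24 with the sponge and 46.0 ± 0.0674 with the scramble sponge, all in CPM with the SD over 3, 2, 3 and 2 libraries. The log2 fold change of overexpression over the mutated control was -0.23 (95% interval -0.52 to 0.06, edgeR adjusted p = 0.37). The sponge over the scramble sponge gave -0.38 (95% interval -0.67 to -0.09), with an unadjusted p of 0.0144 and an adjusted p of 1 in edgeR over all genes. The difference between these vector effects was 0.15 (SE 0.19, edgeR adjusted p = 0.831). Cd74 varied by 14.7% over the libraries, where counting error gives 2.36%. Its 12 exonic bases shared with Mir5107 are the only overlap.

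Ciita, the class II transactivator (chromosome 16, 10297923 to 10346282, plus strand, 24 exonic blocks), was read from 17 to 76 counts per library. It had 28, 37 and 17 counts with overexpression, which are 0.473, 0.864 and 0.661 CPM, against 54 and 42 counts, or 1.13 and 1.02 CPM, in the mutated control. It had 1.07, 1.50 and 0.843 CPM with the sponge, against 1.04 and 1.12 CPM with the scramble sponge. The 3 overexpression libraries were below all 4 control libraries, but replicate 2 of overexpression was above replicate 3 of the sponge. Overexpression gave 0.606 times the level of the mutated control, a log2 fold change of -0.72 (SE 0.30, 95% interval -1.38 to -0.07), with an unadjusted p of 0.0336 and an adjusted p of 0.245 in edgeR. Against the scramble sponge overexpression gave -0.74 (SE 0.30, edgeR adjusted p = 0.333). The sponge differed from the scramble sponge by 0.08 (95% interval -0.53 to 0.68), and the mutated control from the scramble sponge by -0.01 (95% interval -0.68 to 0.65). The overexpression effect minus the sponge effect on Ciita was -0.80 (SE 0.40, edgeR adjusted p = 0.659), so the effects were not shown to differ.

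Ciita shares 329 exonic bases with Dexi, a gene on the minus strand, and reads overlapping exons of both counted for neither, by the same counting command. Dexi averaged 10.4 ± 0.948 with overexpression, 11.7 ± 0.914 in the mutated control, 14.1 ± 1.09 with the sponge and 12.8 ± 0.129 with the scramble sponge, in CPM with the SD over the same 3, 2, 3 and 2 libraries. Its log2 fold change of overexpression over the mutated control was -0.18 (SE 0.10) and over the scramble sponge -0.30 (SE 0.10, edgeR adjusted p = 0.278).

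**Figure D2:**
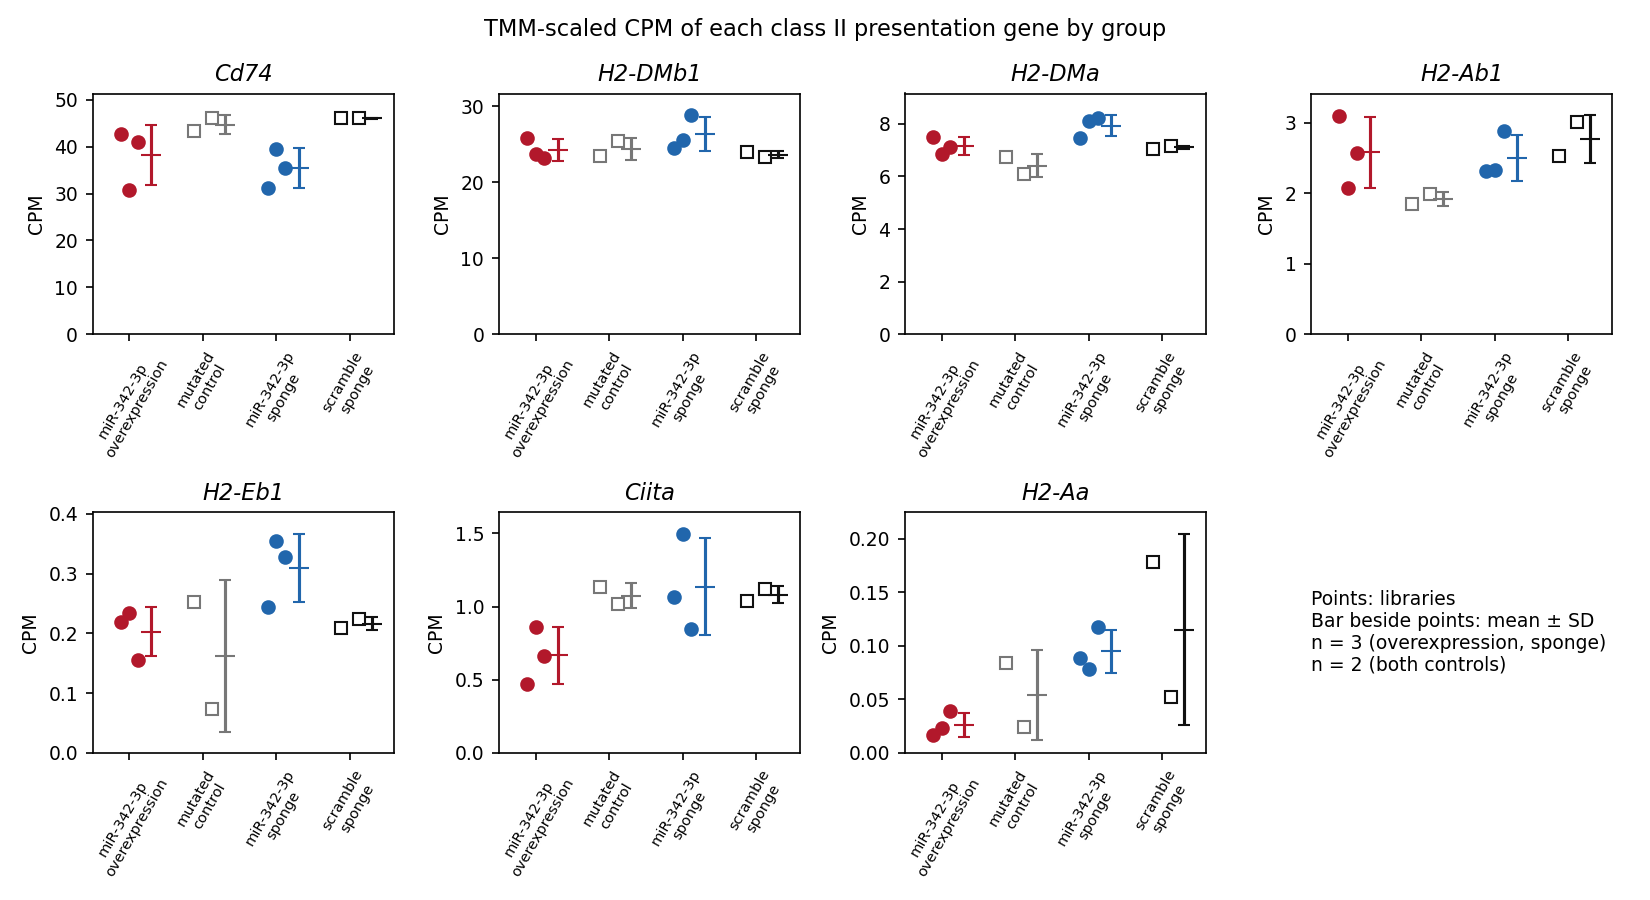
TMM-scaled CPM of each class II presentation gene, 1 panel per gene, with 1 point per library and the group mean ± SD beside it (n = 3 for overexpression and sponge, n = 2 for each control). Cd74 is highest in the 4 control libraries, Ciita is lower with overexpression (0.473 to 0.864 CPM) than in either control, and H2-Ab1 is lowest in the mutated control (1.85 and 1.98 CPM).

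Set side by side, 0 of the 6 tested class II genes passed an adjusted p of 0.05 in any comparison by edgeR, DESeq2 or limma-voom on filtered counts. With overexpression against the mutated control, edgeR called 0.539% and DESeq2 2.57% of all 15767 genes. At an unadjusted p under 0.05 edgeR had 2 of 6 class II genes there, Ciita lower and H2-Ab1 higher, where 18.2% of all genes passed. With the sponge against the scramble sponge, edgeR called 0.00% and DESeq2 0.00634% of genes, and Cd74 was the 1 class II gene at an unadjusted edgeR p under 0.05, a mark that 2.33% of all genes reached. With the mutated control against the scramble sponge, edgeR called 0.0254% and DESeq2 0.450%, and H2-Ab1 alone had an unadjusted edgeR p under 0.05 (0.022), against 6.47% of all genes. With overexpression against the scramble sponge, edgeR called 0.0444% and DESeq2 1.19%, and Ciita alone was under 0.05 unadjusted in edgeR, against 13.4% of all genes.

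The groups did not overlap for 4 of the 6 with overexpression against the mutated control (Ciita and Cd74 lower, H2-DMa and H2-Ab1 higher), while 38.2% of all genes had no overlap. For the sponge against the scramble sponge it was also 4 of 6 (H2-DMa, H2-DMb1 and H2-Eb1 higher, Cd74 lower), beside 15.2% of all genes. For the mutated control against the scramble sponge 2 of 6 had no overlap (H2-DMa and H2-Ab1, both lower), beside 48.4%, and for overexpression against the scramble sponge 2 of 6 (Ciita and Cd74, both lower), beside 31.0%. The median log2 fold change of the 6 was 0.08 with overexpression, against -0.0063 over all tested genes, and 0.12 with the sponge, against -0.0013. In a test for any difference among the 4 groups, where edgeR called 0.419% and DESeq2 4.99% of genes and 16.1% had an unadjusted edgeR p under 0.05, Cd74, H2-DMa and Ciita had unadjusted p-values of 0.0411, 0.0432 and 0.0494, and edgeR adjusted p-values of 0.291, 0.296 and 0.31. In the test of overexpression effect minus sponge effect, edgeR called 0.00% and DESeq2 0.273% of genes. H2-Ab1 was the 1 class II gene under 0.05 unadjusted, where 8.06% of genes were, with 0.60 (SE 0.26, edgeR adjusted p = 0.61).

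**Figure D3:**
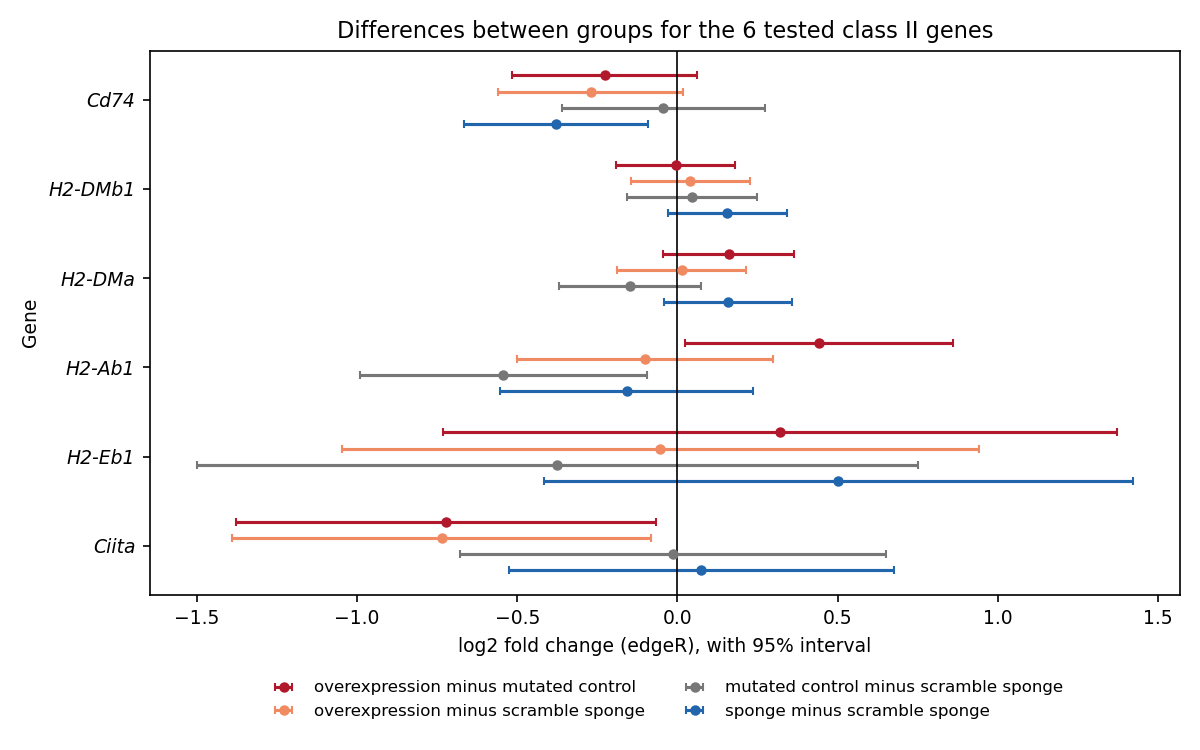
Log2 fold change of the 6 tested class II genes in 4 comparisons, with edgeR's 95% interval as the bar. The intervals of Ciita with overexpression (-1.38 to -0.07 against the mutated control), Cd74 with the sponge (-0.67 to -0.09) and H2-Ab1 in comparisons with the mutated control exclude 0 before adjustment over all genes; none passed after it.

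Genes listed for class II transcription, among them the factors that Ciita docks on at class II promoters, were read in every library. All 12 genes of the class II transcription list were tested, led by Nfya (26.1 CPM per kilobase), a subunit of NF-Y, and the acetyltransferases Kat2b (18.9) and Ep300 (17.0). The RFX subunits Rfx5, Rfxap and Rfxank, named here for their role after their values were seen, had 5.17, 10.5 and 3.33 CPM per kilobase, so each was above Ciita's 0.102. By edgeR or DESeq2 0 of 12 passed the adjusted threshold in any comparison between groups. Over all genes edgeR called at most 0.539% and DESeq2 at most 4.99% in a comparison. At an unadjusted edgeR p under 0.05 stood 2 of 12 with overexpression, beside 18.2% of all genes. With the sponge it was 0 of 12, beside 2.33%. The median log2 fold change was -0.08 with overexpression and -0.0085 with the sponge.

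Class II promoters are known for an X box, bound by RFX and CREB factors, followed by a Y box, bound by NF-Y. Promoter windows of 250 bases before to 50 after each start, from the RefSeq table of GRCm38.p6, were searched on both strands for CTNGNAAC followed by TGATTGG after a gap of 15 to 40 bases. These letters were chosen after the class II promoters had been seen, so that their presence there is no test. Of the class II genes, H2-Aa, H2-Eb1, H2-DMa and H2-DMb1 were searched, and the stretch is printed for the 3 of these 4 with both boxes in order; capitals mark the X-box and Y-box letters, and each reads along the gene's own strand. They lie at chr17:34287861-34287913 on the minus strand (H2-Aa), chr17:34305767-34305818 on the plus strand (H2-Eb1) and chr17:34153088-34153140 on the plus strand (H2-DMb1). These coordinates belong to GRCm38.p6, whereas gene positions elsewhere are those of the deposited table.
H2-Aa: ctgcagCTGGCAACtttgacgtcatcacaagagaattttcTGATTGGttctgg
H2-Eb1: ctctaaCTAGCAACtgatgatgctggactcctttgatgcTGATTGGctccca
H2-DMb1: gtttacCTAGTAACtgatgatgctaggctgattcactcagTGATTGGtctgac
The pair of boxes was found in 24 of 32851 windows (0.073%), the X letters alone in 13.153% and the Y letters alone in 7.817%. H2-Aa, H2-Eb1 and H2-DMb1 had 0.0185, 0.118 and 14.7 CPM per kilobase. So 3 promoters that fit the same pattern, but differ in their X-box letters, came with levels from below detection to moderate. Neither set of letters was in the 2 windows of H2-DMa. The promoters of H2-Ab1, Ciita and Cd74 were not searched here.

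Genes around class II presentation were read from lists. Of 7 other class II chains and regulators of surface class II, 5 were tested. Marchf8, a ubiquitin ligase, had 14.3 CPM per kilobase, H2-Oa, a chain of the H2-DM inhibitor H2-DO, had 1.10, and Marchf1, the ligase that takes class II from the surface, had 0.527. By edgeR or DESeq2 0 of 5 passed in any comparison between groups. Over all genes edgeR called at most 0.539% and DESeq2 at most 4.99% in a comparison. By edgeR 0 of 5 had an unadjusted p under 0.05 with either vector, beside 18.2% of all genes with overexpression and 2.33% with the sponge. With so few genes these counts do not tell the list from all genes. All 11 endosomal proteases and related genes were tested, led by the cathepsins Ctsb (1272 CPM per kilobase), Ctsd (1127) and Ctsz (950). Ctss, which trims Cd74 in presenting cells and was named after its values were seen, had 545. By edgeR 0 of 11 passed. DESeq2 called 0 of 11 between pairs of groups and Ctsh alone in the test for any difference, beside 4.99% of all genes. By edgeR the count was 1 of 11 at an unadjusted p under 0.05 in each vector comparison. Over all genes the share was 18.2% with overexpression and 2.33% with the sponge.

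All 20 genes of the interferon gamma list were tested, led by the chemokine Cxcl10 (71.2 CPM per kilobase), the receptor chain Ifngr1 (57.8) and the GTPase Igtp (45.7). By edgeR, which called at most 0.539% of all genes in a comparison, 0 of 20 passed in any. By DESeq2 0 of 20 passed with either vector against its own control. At an unadjusted edgeR p under 0.05 stood 5 of 20 (2 higher, 3 lower) with overexpression, beside 18.2% of all genes. With the sponge it was 1 of 20, beside 2.33%. Their log2 fold changes were split evenly with overexpression, 10 above 0 and 10 below, while 18 of 20 were below 0 with the sponge, at a median of -0.08 against -0.0013 over all genes. Against the same scramble sponge libraries, 17 of 20 were below 0 in the mutated control and 15 of 20 with overexpression. DESeq2 called 4 of 20 there with overexpression, the interferon-induced GTPases Gbp3, Gbp4, Gbp5 and Iigp1, whose edgeR log2 fold changes were -0.31 (SE 0.08), -0.49 (SE 0.09), -0.49 (SE 0.11) and -0.30 (SE 0.07) with adjusted p-values of 0.0952 to 0.184, and 1 of 20 in the mutated control, Iigp1. In the test for any difference DESeq2 called 5 of 20 (those 4 and Gbp2). Over all genes DESeq2 called 1.19% with overexpression and 0.450% in the mutated control against the scramble sponge, and 4.99% for any difference. Another list held 8 genes set down as possible repressors of Ciita, and whether they restrain it in this line was not tested. Led by Tgfb1 (84.3 CPM per kilobase), the DNA methyltransferase Dnmt1 (79.0) and Id2 (72.2), they gave 0 of 8 past the adjusted threshold in edgeR. DESeq2 called 2 of 8 with overexpression against the mutated control, Tgfb1 (edgeR log2 fold change 0.29, SE 0.08, adjusted p = 0.112) and Prdm1 (-0.61, SE 0.17, adjusted p = 0.126), a repressor that binds the Ciita promoter in B-lineage cells, and 0 of 8 with the sponge. In the test for any difference it called Bcl6 as well. With overexpression against the mutated control, DESeq2 called 2.57% of all genes. In edgeR with overexpression 4 of 8 had an unadjusted p under 0.05 (1 higher, 3 lower), beside 18.2% of all genes. With the sponge it was 2 of 8, beside 2.33%.

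MHC class I presentation, the pathway for peptides from the cytosol, reached far higher levels, but the 2 lists overlapped. All 19 class I genes were tested, led by B2m (3206 CPM per kilobase) and the heavy chains H2-D1 (1320) and H2-K1 (926). Cd74, at 23.9 CPM per kilobase, was above Erap1 (19.1), Tapbpl (21.6) and Tap2 (23.1), which were named after their values were seen. By edgeR 0 of 19 passed, and DESeq2 called 0 of 19 between pairs of groups. Over all genes edgeR called at most 0.539% in a comparison, and DESeq2 at most 2.57% between pairs of groups. In the test for any difference DESeq2 called 2 of 19 (H2-D1 and H2-T23), beside 4.99% of all genes. By edgeR the counts were 1 of 19 at an unadjusted p under 0.05 with overexpression and 0 of 19 with the sponge. Over all genes the shares were 18.2% and 2.33%. Beyond these lists, the marker lists held 1 gene called by edgeR, the endothelial receptor Kdr. It was lower with overexpression than in the mutated control by an edgeR log2 fold change of -0.47 (SE 0.08, adjusted p = 0.0352). Against the scramble sponge, Kdr was higher in the mutated control by 0.39 (SE 0.09, edgeR adjusted p = 0.233), which DESeq2 called. With overexpression it was -0.08 (SE 0.08, edgeR adjusted p = 0.684) against the same scramble libraries.

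**Figure D4:**
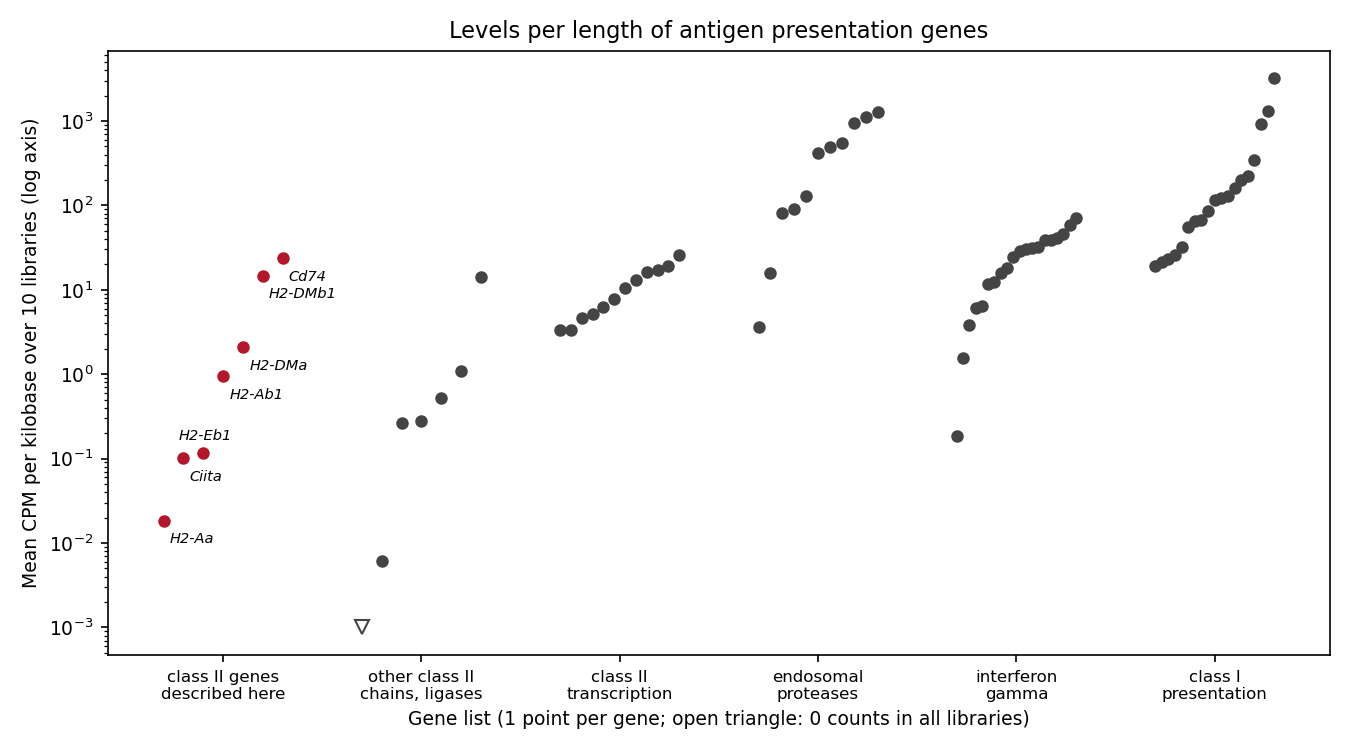
Mean level over the 10 libraries, in CPM per kilobase of exon on a log axis, for each gene of 6 antigen presentation lists, with 1 point per gene and an open triangle for H2-Ea, which had 0 counts. The class II genes lie between 0.0185 and 23.9, the class II transcription genes between 3.30 and 26.1, and the class I genes between 19.1 and 3206.

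The class II genes did not vary as 1 block over the libraries. As a description over 10 libraries that also share depth and group, Pearson's r of log2(CPM + 0.1) was 0.84 for H2-Eb1 with H2-DMa, 0.59 for H2-Ab1 with H2-DMa and 0.55 for H2-DMa with H2-DMb1. It was 0.02 for Cd74 with Ciita, -0.14 for H2-DMb1 with Ciita and -0.47 for H2-Ab1 with Ciita. The values for H2-Eb1 rest on 3 to 18 counts per library. Its coefficient of variation was 34.6%, where counting error gives 30.9%. The genes whose pattern was most like that of Cd74, the class II gene of highest level per length, were the splicing factor Srsf1 (r = 0.92), the cytokine Il1b (0.90), the lipopolysaccharide receptor Cd14 (0.88), the adaptor Stap1 (0.87) and the kinase Pim1 (0.87). They were ranked among 10319 genes, of which 5 in 100 had an r above 0.48. By ranks (Spearman's rho) these genes had 0.89, 0.73, 0.82, 0.79 and 0.60, in the same order.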

How the data were processed

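The deposited table holds raw counts of reads per gene, which the authors made with featureCounts 2.0.1 against GENCODE vM30, without strand and with a minimum overlap of 10 bases, per the file headers. FastQC 0.11.6, Trimmomatic, STAR 2.7.6a and the build GRCm38 are named in the submitters' processing notes; vM30 belongs to a later build, so gene coordinates are given as deposited. Lines have 15 fields under 16 names, since sponge replicate 3 and a scramble library share 1 field with no separator. Joined numbers were divided at the likeliest place under a negative binomial distribution (dispersion 0.1, likelihood ratio of at least 100), given the 8 intact libraries; 51 of 55866 genes, none a class II gene, were left out. On 10 pairs of intact libraries joined on purpose, at least 99.9266% of genes were recovered. The numbers of the scramble libraries follow the order of the header, whose command names 12 libraries; 10 are analysed here.

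Counts were tested with edgeR 4.0.16 in R 4.3.3 (quasi-likelihood, TMM, filter by group) in 1 fit of 10 libraries, 15767 genes and 6 residual degrees of freedom, with Benjamini-Hochberg adjusted p-values over all genes. SE is the log2 fold change over the square root of F. Alternatives were DESeq2 1.42.0, limma-voom (limma 3.58.1), RLE factors, no filter, only the groups compared, a replicate block, each library left out, TPM in place of CPM, and other detection rules. Code was tested on simulated data. Libraries are biological replicates by their titles; the sources used here do not say whether cultures were kept apart, and p-values then cover only library-to-library spread. Replicates differed beyond counting noise (chi-square per gene of at least 4.26 in each pair), and all 10 were counted separately. Class II genes were all named; of other lists, called genes and the 3 of highest level, and others are marked as chosen after their values were seen. Members and lists were chosen with earlier results of these data known.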

Additional observations from a re-analysis of the deposited data

How the results depend on the processing

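No class II gene was called under any alternative, with 1 exception: without a filter on low counts, Cd74 passed the test for any difference among the 4 groups (adjusted p = 0.00236, 1 class II gene called, against 0.291 with the filter); the cause was not tested. Of 532 recomputed log2 fold changes of class II genes, 505 kept their direction and side of the threshold and 27 turned; the cause was not tested. Those turned were H2-DMb1 with overexpression against the mutated control (0.0006 by limma-voom, 0.0051 without the filter, 0.0062 without both libraries of the joined field, a choice made after seeing the data, and -0.062 to 0.067 leaving out 1 library), H2-Eb1 in the difference of the vector effects (0.047 by limma-voom) and, with the replicate block by title numbers, Ciita between the controls (0.020). Leaving out 1 library, other values crossing 0 were H2-Eb1 with overexpression against the mutated control (-0.25 to 1.50), against the scramble sponge (-0.13 to 0.058), between the controls (-1.55 to 0.20) and in the difference of the effects (-0.76 to 0.99), and Ciita with the sponge (-0.18 to 0.24) and between the controls (-0.097 to 0.056). H2-Ab1 (-0.29 to 0.050), H2-DMa (-0.028 to 0.055) and H2-DMb1 (-0.0095 to 0.078) crossed 0 with overexpression against the scramble sponge, as did H2-DMb1 (-0.020 to 0.10) and Cd74 (-0.094 to 0.0005) between the controls and H2-DMa in the difference of the effects (-0.056 to 0.076). Ciita with overexpression against the mutated control stayed between -0.98 and -0.46 and Cd74 with the sponge between -0.47 and -0.29.

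Counts of called genes moved more. In the order overexpression against mutated control, sponge against scramble, mutated control against scramble, overexpression against scramble, any difference and difference of effects, edgeR called 85, 0, 4, 7, 66 and 0 genes, DESeq2 405, 1, 71, 188, 786 and 43, and edgeR without the filter 1390, 24, 149, 747, 1707 and 331. Leaving out 1 library gave 0 to 279, 0 to 0, 0 to 36, 1 to 37, 12 to 273 and 0 to 7; where that leaves a control with 1 library, its spread is assumed to be that of the other groups. For overexpression against the mutated control, dropping either mutated control library left 0 calls, dropping overexpression replicate 2 left 6 and dropping replicate 3 left 279. Dropping a scramble library left 24 either way, and dropping sponge replicate 1, 2 or 3 left 31, 143 and 252 calls. With only the groups compared, 34 genes were called with overexpression and 574 between the controls. Without both libraries of the joined field 1 was called between the controls and 3 with overexpression against scramble. The replicate numbers did not pair the libraries: overexpression and sponge libraries of 1 number had deviations correlated at -0.69, -0.11 and -0.84. Across unlike numbers, the correlations ran from -0.55 (overexpression replicate 1 with sponge replicate 2) to 0.79 (overexpression replicate 1 with sponge replicate 3). Overexpression replicate 3 with sponge replicate 2 gave 0.73. The main fit held no term for such shared spread, and its source was not tested. With the replicate block by title numbers 0 genes were called with overexpression against the mutated control, 1 between the controls, 3 with overexpression against scramble and 5 for any difference; by description numbers 0, 1 and 6 in the first, the controls and any difference; no class II gene was called. By TPM the order of levels was the same. At least 1 count, or over 3 counts, in any library would leave 0 class II genes below detection instead of 1. H2-Aa, at 1 to 6 counts, and H2-Eb1, at 3 to 18, rest on few counts.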
